A study of Mus musculus with 4 samples.

Results

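The mRNAs of the microtubule motors were examined in RNA brought down from mouse brain by an antibody against CPEB3. The set holds the genes on the array named as a numbered kinesin heavy chain (Kif and a number, which leaves out Kifc1, Kifc2 and Kifc3), a kinesin light chain (Klc1 to Klc4), a subunit of a cytoplasmic dynein (Dync1, Dync2, Dynll, Dynlrb and Dynlt names) or one of the dynactin subunits Dctn1 to Dctn6. The name rule found 62 genes with 93 probes, among 55681 probes in all. Of these genes, 55 were well above background on at least 2 arrays and were tested, among 27687 array entries (1 entry per gene or unnamed transcript). The 7 others were Kif12, Kif15, Kif18a, Kif18b, Kif2b, Kif2c and Kif4.

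Corticohippocampal lysate of male C57BL/6 mice aged 8 weeks was kept for 3 h with beads that carried CPEB3 IgG (2 arrays) or control IgG (2 arrays). CPEB3, cytoplasmic polyadenylation element binding protein 3, binds RNA and controls whether neurons translate certain messages. Of each recovered RNA 0.2 ug was amplified and Cy3-labelled for 1-colour Agilent arrays. The mice carried no allele or treatment that the labels name, and the labels do not say whether the 2 samples of a group came from separate animals or were pooled, so the spread that p-values rest on may be technical.

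Kinesins and dyneins are motor proteins that use ATP to walk along microtubules. Most kinesins move toward the plus end, which in an axon points to its tip, and cytoplasmic dynein moves toward the minus end with the help of the dynactin complex. In neurons these motors carry vesicles, organelles and RNA granules between the cell body and distant axons and dendrites, and another set of kinesins builds the spindle of dividing cells.

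Levels are given in log2 units above or below the array's own 75th percentile, and differences are log2 values, CPEB3 IgG minus control IgG. Differences compare shares of the precipitated RNA, not amounts in the tissue, and fewer cells of a type cannot be told apart from less RNA per cell. Between 68.0% and 73.5% of the probes were well above background on an array, 0 spots were saturated, and the number of arrays limits the precision. Across the tested entries, each at its brightest probe, the log2 signals of the CPEB3 replicates correlated at 0.988. Those of the control replicates correlated at 0.979, against 0.925 to 0.9385 between groups. Cpeb3 mRNA was higher by 2.95 ± 0.23 (SE) in the CPEB3 precipitate, with levels of 4.22 and 3.85 against 1.28 and 0.91 (limma adjusted p = 0.00386). All 6 neuronal marker genes were well above background on all 4 arrays, which fits the tissue label, and 0 of them were called. Since a single slide and a single scan held the 4 arrays, the position of an array on the slide and its antibody cannot be told apart.

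The probes of 3 genes show what was measured, since the result at each of these genes differed between its probes. Each line gives 30 bases of a 60-base probe as the array files print them, 5′ to 3′. Bases 31 to 60 are shown, apart from the Kif2a probe at 3473, where bases 1 to 30 are shown. Capitals mark TTTTAT, a core letter string of the cytoplasmic polyadenylation element, or TTTTT. The number after the gene is the base of the transcript at which the probe starts.
Kif3a, 1215: atcgaagagctgaagaaaaagcttgaggaa
Kif3a, 2961: tacagcttacaaacacttccttgtctgaat
Kif2a, 1108: gaaagatcttgatgtgatcacaatccctag
Kif2a, 2864: tgaagtattttgtttcatttgcccaaataa
Kif2a, 3473: gaggagTTTTATtttaggataatacatata
Klc1, 1715: gaagcggaggagccgggagagtctcaatat
Klc1, 2424: aagcctgttcataactaTTTTTtaaaaatt

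In mm9, the build the file headers name, the Kif3a probes lie on the plus strand at chr11:53397887-53397946 and chr11:53415270-53415329. The Kif2a probes lie on the minus strand at chr13:107772727-107773291, which spans more than the length of the probe, and at chr13:107751949-107752008 and chr13:107751340-107751399. The Klc1 probes lie on the plus strand at chr12:113027568-113027627 and chr12:113044907-113044966, and are assigned to different transcripts. Which exon or UTR each probe reads was not analysed here.

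Of the 55 tested members, 8 were called higher in the CPEB3 precipitate, 17 fell and 30 did not pass the test. The 8 include Kif23, which passed the background filter only through the arrays where it is high and so had to differ. Over all array entries, 19.2% were called higher and 20.2% lower. Among entries matched to a RefSeq transcript, 25.6% were called higher and 19.9% lower. The median difference of the members was −0.38, against −0.14 over all entries and −0.0089 over the RefSeq-matched entries. The CPEB3 and control arrays did not overlap for 47 of the 55 members, while 72.9% of all entries had groups that did not overlap. The kinesins and the dyneins with dynactin stood at different medians. Of 35 tested kinesin and light chain genes 7, Kif23 among them, were called higher and 6 fell, with a median of 0.019, and of 20 dynein and dynactin genes 1 rose and 11 fell, with a median of −0.78.

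The split between directions depended on how the arrays were scaled. Of the called members, 32.0% were higher with the 75th percentile (8 higher, 17 lower), 50% with median scaling (11 and 11) and 77.8% with spike-in scaling (7 and 2). Of all called entries, 48.7% were higher with the 75th percentile, 68.4% with median scaling and 86.4% with spike-in scaling, and the median difference of all entries moved from −0.14 to 0.15 and 0.51. Only Dctn2 and Kif6 were called lower with spike-in scaling. Kif6 had control levels of 1.43 and −2.04 relative to the 75th percentile, so its value leaned on control IgG replicate 1. It was not called with the 75th percentile (limma adjusted p = 0.170). Spike-in probes averaged 13.11 and 13.43 (log2 signal) on the CPEB3 arrays and 13.97 and 13.94 on the control arrays. Called directions below hold relative to the 75th percentile. Kif23, which had to differ, counts among the higher members in every split of this paragraph. Leaving out CPEB3 IgG replicate 1 left 2 members higher and 8 lower, and leaving out CPEB3 IgG replicate 2 left 4 and 7. Without control IgG replicate 1 the counts were 6 and 12, and without control IgG replicate 2 they were 6 and 14.

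**Figure D1:**
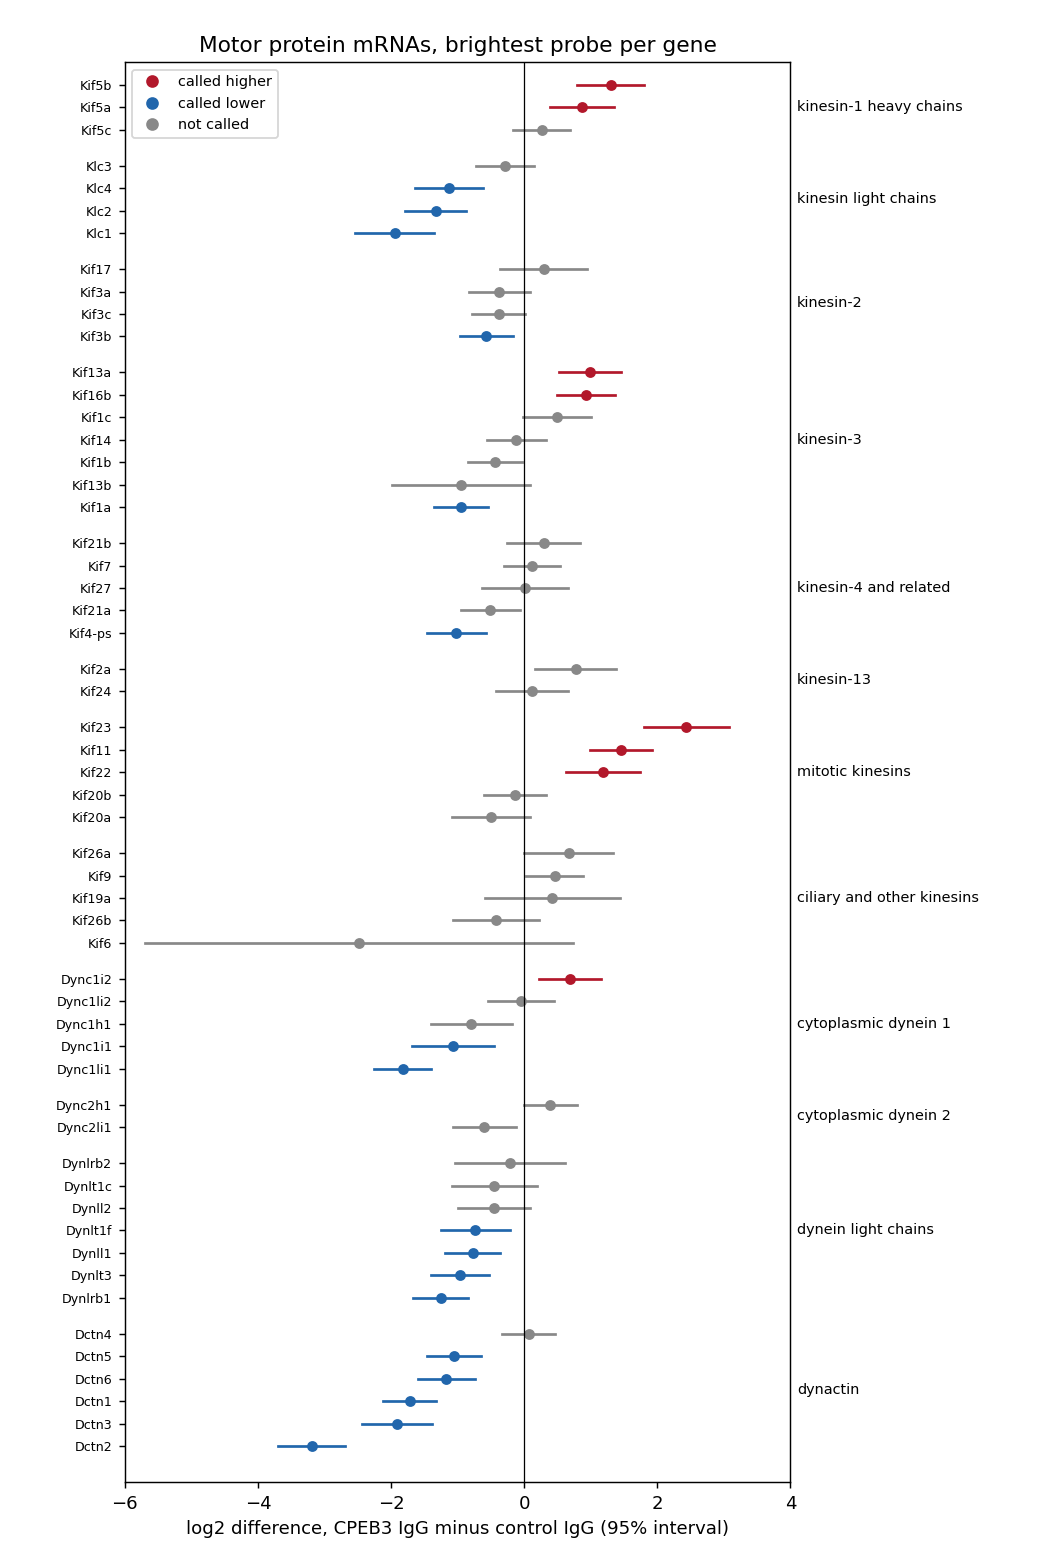
Log2 difference (CPEB3 IgG minus control IgG, x axis) of the 55 tested motor genes at their brightest probe, grouped by role; points are limma estimates from 2 arrays per group and bars their 95% intervals. Of the 6 dynactin subunits 5 lie below 0, and both called kinesin-1 heavy chains lie above it.

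Kinesin-1 is the motor that carries mitochondria, vesicles and RNA granules along axons and dendrites, built of heavy chains, which hold the motor domain, and light chains, which bind cargo. At the brightest probe of each gene, its heavy and light chains lay on opposite sides of 0. Of the 3 heavy chains 2 rose and 0 fell, and of the 4 light chains 0 rose and 3 fell.

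Kif5b, the heavy chain made in most tissues, had levels of 2.37 and 2.13 on the CPEB3 arrays and of 1.08 and 0.82 on the control arrays. Both CPEB3 arrays were above both control arrays, and the difference was 1.30 ± 0.19 (SE, limma adjusted p = 0.0101). The neuronal heavy chain Kif5a stood at 8.22 and 8.39 on the CPEB3 arrays and at 7.57 and 7.31 on the control arrays. It rose by 0.86 ± 0.18 (SE, limma adjusted p = 0.0238), also with no overlap. Kif5c, the other neuronal heavy chain, read 5.34 and 5.49 against 5.09 and 5.22. That difference of 0.26 (95% interval −0.16 to 0.69, adjusted p = 0.252) was not called. A second, dimmer probe of Kif5a gave −0.28, not called. A second Kif5b probe (−0.36, not called) was not well above background on either CPEB3 array. With the mean of a gene's probes, which takes in these dim probes, both calls were lost (Kif5a 0.29, Kif5b 0.47). The Kif5b call was lost without CPEB3 IgG replicate 1 (1.18). The Kif5a call was lost without CPEB3 IgG replicate 1 (0.95), without CPEB3 IgG replicate 2 (0.78) and without control IgG replicate 2 (0.73).

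Klc1, the main neuronal light chain, read 2.66 and 2.53 on the CPEB3 arrays and 4.31 and 4.78 on the control arrays at the probe starting at 1715. It was 3.86-fold lower (−1.95 ± 0.22, SE, limma adjusted p = 0.00599), with wide separation of the groups. Klc2 read 4.28 and 4.21 against 5.44 and 5.71, and fell by 1.33 ± 0.17 (SE, adjusted p = 0.00798). Klc4 read 1.77 and 1.40 against 2.72 and 2.71, and fell by 1.13 ± 0.19 (SE, adjusted p = 0.0144). Both of these light chains had groups that did not overlap. A second Klc4 probe was lower too, by −1.18. Klc3 differed by −0.29 (adjusted p = 0.232), which was not called. The Klc1 probe at 2424, on another transcript, read −2.40 and −2.96 against −2.89 and −2.77, so the groups overlapped there (0.15, adjusted p = 0.671 over each probe). With the mean of both probes Klc1 was at −0.90. The call of Klc2 was lost without CPEB3 IgG replicate 1 (−1.37) or replicate 2 (−1.29), and that of Klc4 without CPEB3 IgG replicate 2 (−0.95). With spike-in scaling none of the 3 passed (Klc1 −1.29, Klc2 −0.68, Klc4 −0.48).

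**Figure D2:**
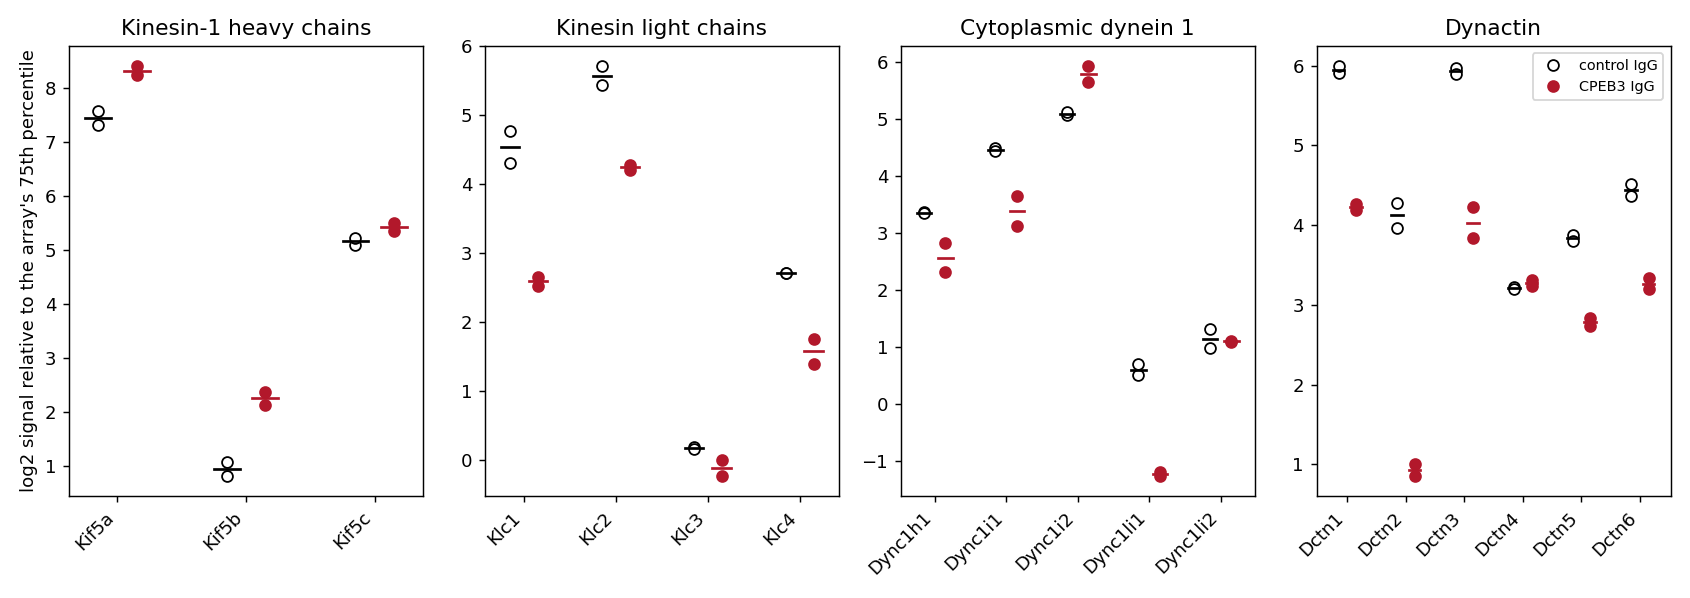
Level on each array (log2 signal relative to the array's 75th percentile, y axis) of kinesin-1, cytoplasmic dynein 1 and dynactin subunits; open points are the 2 control IgG arrays, filled points the 2 CPEB3 IgG arrays, and lines their means. Levels of different genes come from different probes and are not comparable with each other.

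Kinesin-2 motors serve intraflagellar transport in cilia and carry cargo in dendrites. Of 4 members 1 fell. Kif3b, a heavy chain of the heterotrimeric motor, read −0.50 and −0.43 on the CPEB3 arrays and 0.09 and 0.12 on the control arrays. The difference was −0.57 ± 0.15 (SE, limma adjusted p = 0.0419), with groups that did not overlap. It lost its call with each array left out (−0.60 to −0.54), and with spike-in scaling it was 0.08. Kif3a, the partner of Kif3b, differed by −0.37, Kif3c by −0.38 and the dendritic motor Kif17 by 0.29, none of them called. With the mean of a gene's probes, Kif3a (−1.77, limma adjusted p = 0.00433) and Kif17 (−0.85, adjusted p = 0.0446) were called lower, and kinesins lower came to 9.

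Kinesin-3 motors carry synaptic vesicle precursors and endosomes. Of 7 members 2 rose and 1 fell. Kif13a, an endosome motor, read 1.25 and 1.53 against 0.42 and 0.38 and rose by 0.99 ± 0.17 (SE, limma adjusted p = 0.0159). Kif16b, which moves early endosomes, read 0.82 and 0.76 against −0.23 and −0.04 and rose by 0.93 ± 0.16 (SE, adjusted p = 0.0152). Both motors had groups that did not overlap. Kif1a, the carrier of synaptic vesicle precursors, read 4.81 and 4.71 against 5.75 and 5.68 and fell by 0.95 ± 0.15 (SE, adjusted p = 0.0125), again without overlap. All 3 calls were lost without CPEB3 IgG replicate 1 (1.13, 0.90 and −1.01 for Kif13a, Kif16b and Kif1a) or replicate 2 (0.85, 0.96 and −0.90). That of Kif16b was lost without control IgG replicate 1 too (0.83), and that of Kif1a with median scaling (−0.66). Kif13b was not well above background on either CPEB3 array and was not called (adjusted p = 0.120). Kif1b, Kif1c and Kif14 differed by −0.44, 0.49 and −0.12, none called, though Kif1c was called with the mean of its probes (0.58).

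In the kinesin-4 and related group, 1 of 5 tested genes fell. This was Kif4-ps, listed as a pseudogene of the chromosome-binding motor Kif4, with −3.66 and −3.81 against −2.63 and −2.81 and a difference of −1.02 ± 0.17 (SE, limma adjusted p = 0.0133). Near-identical copies may share its signal, so the source of this value is uncertain. The call was lost without CPEB3 IgG replicate 1 (−1.09) or replicate 2 (−0.94), and with normexp background correction (−0.37). The groups did not overlap. Kif21a, Kif21b, Kif7 and Kif27 lay between −0.51 and 0.30, and none was called.

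Mitotic kinesins drive spindle assembly and cytokinesis. Of the 5 that were tested Kif11 and Kif22 rose and 0 fell. The other 3 on the array, Kif15, Kif18a and Kif18b, were well above background on 0, 0 and 1 arrays. They have no tested value, so the filter bears on this count. Kif23, which acts in cytokinesis, read −2.94 and −3.02 on the CPEB3 arrays and −5.14 and −5.69 on the control arrays, where it was not well above background on either array. It was 4.20-fold higher against, per control array, the higher of its signal and the lowest signal well above background. This is given as a description, since a probe that passed the filter only through the CPEB3 arrays had to differ. With normexp background correction the Kif23 difference was 0.71, so the 4.20-fold value is not a lower limit. Kif11, the spindle motor Eg5, read −2.33 and −2.36 against −3.67 and −3.94 and rose by 1.46 ± 0.17 (SE, limma adjusted p = 0.00658), but by 0.69 with normexp. Kif22, a chromosome-arm motor, read 1.23 and 0.88 against −0.01 and −0.26 and rose by 1.19 ± 0.21 (SE, adjusted p = 0.0156). All 3 had CPEB3 arrays above both control arrays. The Kif22 call was lost without CPEB3 IgG replicate 1 (1.009). Kif20a and Kif20b differed by −0.50 and −0.13, not called. Of 5 marker genes of dividing cells, 0 were higher and 1 was lower, Aurkb was well above background on 0 arrays and Top2a not on all 4. Their summed level was −0.83 and −1.0 on the CPEB3 arrays and −0.61 and −0.72 on the control arrays, and its part in these differences was not tested.

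In the kinesin-13 group, microtubule depolymerases, neither tested gene was called. Kif2a, which trims neuronal microtubules, read 1.78 and 1.47 against 1.07 and 0.64, with a difference of 0.77 ± 0.23 (SE, limma adjusted p = 0.0582). The groups did not overlap, and the gene was called higher with median scaling (1.06) but not with the mean of its probes, where its sign turned (−0.42). Kif24 read −2.46 and −2.09 against −2.49 and −2.29, with overlap, and differed by 0.11.

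Of the 5 tested ciliary and other kinesins 0 were called. Kif9 read −1.92 and −1.83 against −2.24 and −2.42 (0.46, adjusted p = 0.0856), and Kif26a 0.04 and −0.34 against −0.59 and −1.05 (0.67, adjusted p = 0.0985). Neither had overlapping groups. Kif19a and Kif26b differed by 0.42 and −0.42, and Kif26b was called lower with the mean of its probes (−0.70). Kif6 had the widest interval of all members, since 1 control array stood apart: it read −2.55 and −3.03 on the CPEB3 arrays and 1.43 and −2.04 on the control arrays (−2.49 ± 1.20, SE, adjusted p = 0.170). Without control IgG replicate 2 the difference was −4.22 and was called. Another Kif6 probe, assigned to a different transcript, shares 47 bases with it. It read −4.15 and −3.36 against −2.95 and −3.01 (−0.77), so the array that stood apart did not do so there. Bases of both are shown because the probes overlap in part and gave different values, and their starts count along different transcripts.
Kif6, 1429: tcttctcaagcagagggacaacgagatcaa
Kif6, 1477: gagggacaacgagatcagtatcctttctcg

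These are bases 31 to 60, on the plus strand of mm9 at chr17:49894503-49897747 and chr17:49894515-49894574. Of 5 marker genes of ependymal ciliated cells 1 was higher and 2 lower, with a summed level of 1.46 and 1.13 on the CPEB3 arrays and 1.89 and 1.87 on the control arrays. Dnah11 was not well above background on all 4 arrays. Their part in these values was not tested. Markers of the choroid plexus, whose cells are ciliated, summed to 4.20 and 4.88 in the replicate 1 arrays with CPEB3 and control IgG and to 1.18 and 1.25 in the replicate 2 arrays, and 0 of 5 were called.

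Cytoplasmic dynein 1 carries cargo back to the cell body. Of its 5 tested subunits 1 rose and 2 fell. Dync1li1, a light intermediate chain that binds cargo adaptors, read −1.26 and −1.19 on the CPEB3 arrays and 0.51 and 0.70 on the control arrays. It was 3.55-fold lower (−1.83 ± 0.16, SE, limma adjusted p = 0.00412), and the groups were far apart. The 2 intermediate chains, which link dynein to dynactin, moved in opposite directions.

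Dync1i1, the intermediate chain found mostly in neurons, read 3.65 and 3.13 against 4.49 and 4.44 and fell by 1.07 ± 0.23 (SE, limma adjusted p = 0.0261). Dync1i2, found in most tissues, read 5.93 and 5.65 against 5.07 and 5.13 and rose by 0.69 ± 0.17 (SE, adjusted p = 0.0391). The groups overlapped for neither. The call of Dync1i2 was lost with each array left out (0.55 to 0.83). That of Dync1i1 was lost without CPEB3 IgG replicate 2 (−0.81) and without either control array (−1.05 and −1.10), and with median scaling (−0.78). A second Dync1i1 probe that shares 18 bases with the first gave −0.86. The heavy chain Dync1h1, the motor itself, read 2.82 and 2.31 against 3.37 and 3.35, with a difference of −0.79 ± 0.22 (SE, adjusted p = 0.0527) that missed the threshold, though it was called with quantile scaling (−0.93). The other light intermediate chain, Dync1li2, read 1.09 and 1.11 against 1.31 and 0.98, with overlap and a difference of −0.05.

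Cytoplasmic dynein 2 serves transport in cilia. Its heavy chain Dync2h1 read 0.32 and 0.22 against −0.13 and −0.12 (0.39, limma adjusted p = 0.104), and its light intermediate chain Dync2li1 read −1.78 and −1.96 against −1.38 and −1.15 (−0.60, adjusted p = 0.0566). Neither was called, and neither had overlapping groups.

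The dynein light chains are small subunits that hold the dynein complex together and also bind other proteins. Of 7 tested 0 rose and 4 fell. Dynlrb1, a roadblock light chain, read 5.23 and 5.19 against 6.54 and 6.38 and fell by 1.26 ± 0.16 (SE, limma adjusted p = 0.00725). Dynlt3 read 2.39 and 2.56 against 3.50 and 3.37 and fell by 0.96 ± 0.16 (SE, adjusted p = 0.0144). Dynll1 read 0.56 and 0.41 against 1.26 and 1.26 and fell by 0.77 ± 0.15 (SE, adjusted p = 0.0215). These 3 had groups that did not overlap. Dynlt1f read 2.66 and 2.28 against 3.20 and 3.20 (−0.73 ± 0.19, SE, adjusted p = 0.0441). The Dynlt1 genes are near-identical copies, so which of them this probe reads is uncertain. Dynlt1c and Dynll2 differed by −0.45 each and Dynlrb2 by −0.22, none called. The calls of Dynll1 (−0.85 to −0.70) and Dynlt1f (−0.92 to −0.54) were lost with each array left out and with median scaling (−0.48 and −0.44). That of Dynlt3 was lost without CPEB3 IgG replicate 1 (−0.87) or replicate 2 (−1.05) and without control IgG replicate 1 (−0.90). With spike-in scaling Dynlrb1 was −0.60 and not called.

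Dynactin binds dynein to its cargo and makes it processive. Of 6 subunits 0 rose and 5 fell. Dctn2, the dynamitin subunit of its shoulder, read 1.00 and 0.86 on the CPEB3 arrays and 3.96 and 4.28 on the control arrays. It was 9.15-fold lower (−3.19 ± 0.19, SE, limma adjusted p = 0.00386), the lowest value of the 55 members, and it was called with spike-in scaling too (−2.54). Bases 31 to 60 of its probe, which spans more than its length on the plus strand of mm9 at chr10:126715455-126718506, are shown for this value.
Dctn2, 1349: aaacttggccacagttgaggggaactttgc

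Dctn3, a smaller shoulder subunit, read 4.22 and 3.83 against 5.98 and 5.90 and fell by 1.91 ± 0.20 (SE, limma adjusted p = 0.00519). Dctn1, the p150Glued subunit that contacts dynein and the microtubule, read 4.26 and 4.19 against 5.91 and 5.99 and fell by 1.72 ± 0.15 (SE, adjusted p = 0.00411). Dctn6, of the pointed-end complex, read 3.33 and 3.20 against 4.36 and 4.51 and fell by 1.17 ± 0.16 (SE, adjusted p = 0.00888). In each of these genes both CPEB3 arrays lay below both control arrays. Dctn5, its partner at the pointed end, fell by 1.06 ± 0.15 (SE, adjusted p = 0.00989). Dctn4, also at that end, read 3.31 and 3.24 against 3.22 and 3.20, with a difference of 0.07 (95% interval −0.33 to 0.46). Its second probe, which shares 55 bases with the first, gave 0.05. The call of Dctn6 was lost without CPEB3 IgG replicate 1 (−1.24) or replicate 2 (−1.11), as was that of Dctn5 (−1.01 and −1.10). With spike-in scaling Dctn1, Dctn3, Dctn5 and Dctn6 were at −1.07, −1.26, −0.40 and −0.52, none of them called.

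Across the 25 called members, 8 kept their call with each of the 4 arrays left out in turn. These were Dctn1, Dctn2, Dctn3, Dync1li1, Dynlrb1 and Klc1, which fell, Kif11, which rose, and Kif23, for which the filter limits what this shows. With a filter on all 4 arrays, under which Kif23 has no value, 8 of 53 members were higher and 19 lower.

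Of 49 listed adaptors and regulators of the motors, all tested, 17 rose and 10 fell, with a median of 0.16. The list also holds the Kifc kinesins and dynactin filament genes, which the closing section counts as adaptors too. Over all array entries 19.2% were called higher and 20.2% lower, and among RefSeq-matched entries 25.6% and 19.9%. The largest called increases were in Nin, a dynein adaptor and centrosome protein (2.21 ± 0.15, SE, limma adjusted p = 0.00386), Kifc3, a minus-end kinesin outside the name rule (1.94 ± 0.19), and Jakmip1 (1.74 ± 0.19). Of the other Kifc kinesins, named after their values were seen, Kifc2 was called higher (0.91) and Kifc1 was not called (0.09). The Kifc2 call was lost without CPEB3 IgG replicate 1 (0.96) or replicate 2 (0.86) and without control IgG replicate 2 (0.83). Nin read 1.27 and 1.14 against −0.97 and −1.04, Kifc3 2.34 and 2.05 against 0.38 and 0.13, and Jakmip1 4.79 and 4.47 against 2.96 and 2.82. None of the 3 had overlapping groups, but Jakmip1 lost its call with the mean of its probes (0.14). Nin was at 1.26 with normexp, below Kifc3 (1.79) and Jakmip1 (1.65), and at 1.43 with the mean of its probes. The largest called decreases were in Spdl1, a kinetochore adaptor of dynein (−2.69 ± 0.62), Nudc, a dynein regulator (−1.68 ± 0.15), and Actr10, a dynactin subunit (−1.67 ± 0.18). Spdl1 read −3.86 and −3.96 against −0.32 and −2.11, Nudc 1.94 and 1.89 against 3.51 and 3.66, and Actr10 2.65 and 2.35 against 4.12 and 4.21. The control arrays of Spdl1 were far apart, and its call was lost without CPEB3 IgG replicate 1 (−2.74) or replicate 2 (−2.65). It was at −1.80 without control IgG replicate 1, −3.59 without control IgG replicate 2 and −1.41 with normexp.

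Chosen after their values were seen, the other dynactin filament genes were Actr1a (−1.03, adjusted p = 0.00969) and Capzb (−1.46, limma adjusted p = 0.00857), which fell, and Actr1b (−0.83, adjusted p = 0.0697), Capza1 (−0.79, adjusted p = 0.470) and Capza2 (0.13, adjusted p = 0.533), which were not called. The Capza1 groups overlapped, and its probe nearest the 3′ end gave 0.15, while that of Capzb gave −2.19. Without CPEB3 IgG replicate 1, Actr1a (−1.02) and Capzb (−1.30) were no longer called, nor was Actr1a without CPEB3 IgG replicate 2 (−1.05).

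The probes of the members gave different values along a transcript. Of all measured probes on the array 15.8% were called higher and 18.9% lower, when each probe was tested by itself. Kif3a had the widest gap. Its probe at 1215 read 0.87 and 0.98 on the CPEB3 arrays and 4.10 and 4.07 on the control arrays (−3.16, limma adjusted p = 0.00527), while the probe at 2961 read 3.37 and 3.33 against 3.59 and 3.85 (−0.37). Its groups did not overlap at either probe, but the first was called lower and the other was not.

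Kif2a was called lower at 1108 (−1.92, limma adjusted p = 0.0233) and was not called at 2864 (0.77) or 3473 (−0.11). Kif3b at 2410 was lower by −1.33 and at 3559 by −0.57, which was not called when each probe was tested (adjusted p = 0.0518). Kif17 was lower at a probe of another transcript (−1.50). On the transcript of its brightest probe (at 3367, 0.29), the Kif17 probe at 3060 gave −1.34 without overlap and was not called. Kif1c was called higher at 2978 (0.69) but not at its brightest probe (0.49). Of 20 genes with several measured probes, 0 had probes called in opposite directions. Of 9 genes whose outermost probes on 1 transcript lay at least 500 nt apart, 6 had the more positive value at the probe nearer the 3′ end. On the array as a whole that held for 80.2% of 2372 such transcripts, with a median gap of 0.75.

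**Figure D3:**
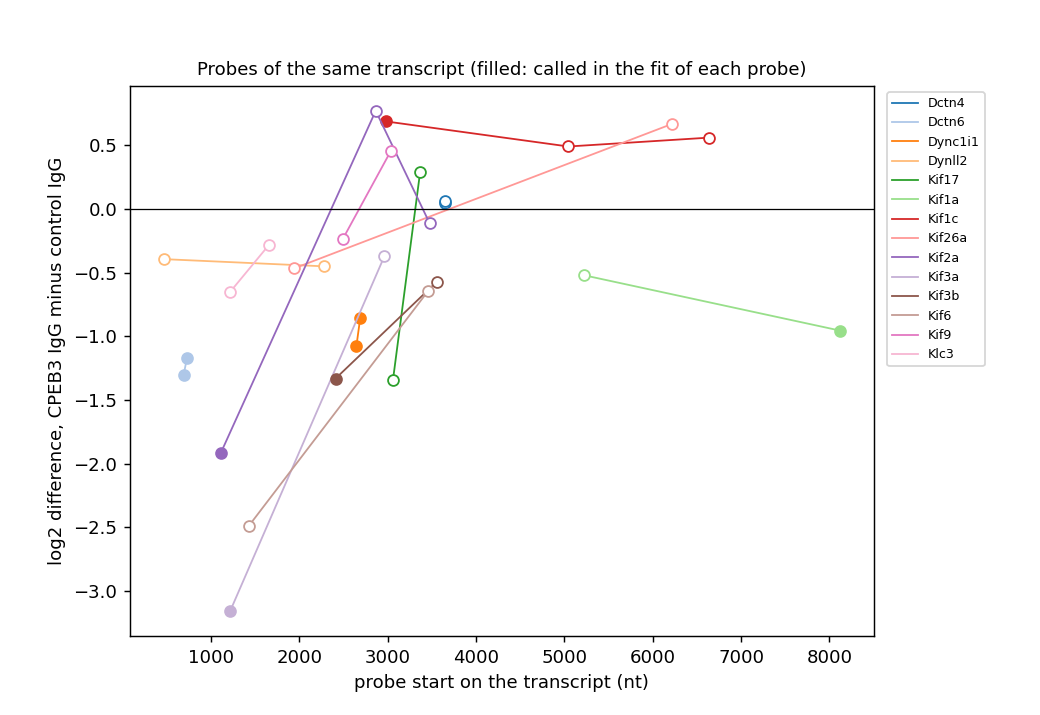
Log2 difference (CPEB3 IgG minus control IgG, y axis) of each probe against its start on the transcript (nt, x axis), for members with several measured probes of 1 transcript; lines join probes of a transcript, and filled points were called when each probe was tested. Kif3a goes from −3.16 at 1215 to −0.37 at 2961.

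The position of the probe moved with the difference over the whole array. Of the RefSeq-matched entries whose brightest probe starts in the first 1000 nt, 9.22% were called higher and 30.2% lower, and of those with a start over 4000 nt 46.9% were called higher and 7.96% lower. The members lie at different positions by family. The median start was 4026 nt for the kinesins, 1578.5 nt for the dyneins and dynactin, 6205 nt for the kinesin-1 heavy chains, 1683 nt for the light chains and 1410.5 nt for dynactin. Of 7 members in the first 1000 nt 0 rose and 4 fell, and of 10 over 1000 and up to 2000 nt 1 rose and 7 fell, where 19.4% of all such entries were higher and 24.5% lower. Of 17 members over 2000 and up to 4000 nt 2 rose and 4 fell, against 32.0% and 14.5%, and of 21 over 4000 nt 5 rose and 2 fell. Spearman's rho between start and difference was 0.44 across 55 members and 0.36 across 16986 RefSeq entries with a start, given as a description since these values share the 4 arrays. The start counts from the 5′ end and transcript lengths were not analysed, so a late start cannot be told apart from a long transcript. The part of the position in the differences between families was not tested.

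**Figure D4:**
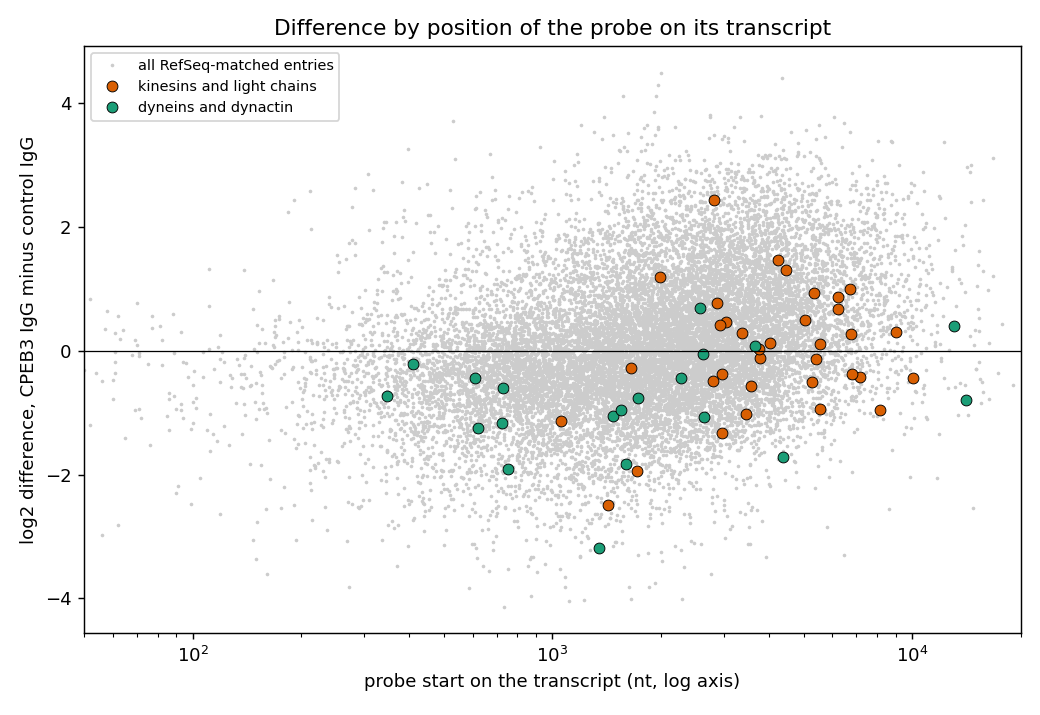
Log2 difference (CPEB3 IgG minus control IgG, y axis) against the start of the brightest probe on its transcript (nt, log axis), for all RefSeq-matched entries in grey, kinesins and light chains in orange and dyneins with dynactin in green. The dynein and dynactin genes have a median start of 1578.5 nt and the kinesins of 4026 nt.

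The letters of the probes were searched for strings known from cytoplasmic polyadenylation elements and polyadenylation signals, on the printed strand only. TTTTAT was in 2 of 80 measured member probes, 1 each of Dynll2 and Kif2a, and in 3.71% of all kept probes. TTTTAAT was in 0 of 80 and in 0.901%. TTTTT was in 5 of 80, in Dynll2, Dynlrb1, Kif1c, Kif26a and Klc1, and in 10.6%, and it can overlap TTTTAT. The signal AATAAA was in 15 of 80 and in 11.0%, and ATTAAA in 7 of 80 and in 4.06%. A probe covers a small stretch of its transcript, so a missing match says only that these letters are not in that stretch. The Dynll2 probe on the minus strand of mm9 at chr11:87793164-87793223 holds TTTTAT at a gene that was not called, and bases 6 to 35 of it are printed.
Dynll2, 2279: tttgattttaggTTTTATttttcttatgaa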

How the data were processed

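RNA precipitated with CPEB3 IgG or control IgG was measured on 2 arrays each, grouped by the antibody label. Spot intensities of 1 colour were deposited, background-subtracted by Agilent Feature Extraction 10.5.1.1 and not normalised between arrays, per the file headers. No source used here gives the authors' test. Control spots (3671 of 62976) and outlier spots (123 to 223 per array) were left out, spots of a probe were averaged as log2 processed signal, and the 75th percentile over probes was subtracted. The 40616 probes that were well above background on 2 or more arrays were kept, and the brightest probe stood for its gene. Names were updated through RefSeq accessions. The test was limma 3.58.1 under R 4.3.3 (lmFit, eBayes, Benjamini-Hochberg over all entries, threshold 0.05), after tests on simulated data. For a probe not well above background on a whole group, the fold sets the bright group's mean against a floor. The floor is, per array of the dim group, the higher of its signal and the lowest signal well above background. Intervals of 95% use the moderated fit.

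By rule, per role group, the 4 called members that differed most, or where none was called the 2 of lowest p, are named with every array's value, and the 3 largest called adaptors in each direction. The members, lists and groups were chosen with earlier results of these data known. Alternatives were normexp background correction, scaling by quantiles, the median, cyclic loess or spike-ins, no scaling, other probe filters, the mean of a gene's probes or the probe nearest the 3′ end, an intensity trend, a replicate block, each array left out, and stricter thresholds. During the work the percentile was first taken over spots, and the spike-in mean was taken 3 ways, with counts of calls seen each time; the other ways are given in the closing section.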

Additional observations from a re-analysis of the deposited data

How the results depend on the processing

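With 2 arrays per group, each count rests on few arrays, and no input array was analysed here. Kif23, which had to differ, counts among the members and kinesins higher in each of 17 alternatives in which it has a value. Over the arrays left out in turn, entries higher ranged from 2492 to 4320 and lower from 2019 to 4466, members higher from 2 to 6 and lower from 7 to 14, kinesins higher from 2 to 6 and lower from 2 to 6, dyneins and dynactin higher 0 and lower from 5 to 8, and adaptors higher from 6 to 10 and lower from 3 to 10. At adjusted p 0.01 the counts (higher, lower) were 2643 and 1794 for entries, 2 and 9 for members, 2 and 2 for kinesins, 0 and 7 for dyneins and dynactin, and 6 and 5 for adaptors. With a 2-fold minimum, 3522 entries were lower, and 4 members, 4 kinesins, 0 dyneins and dynactin and 10 adaptors were higher. With median scaling 3137 entries, 11 members and 3 kinesins were lower, and 2 dyneins and dynactin were higher. Without scaling, entries were 3110 and 3629, members 3 and 10, dyneins and dynactin 0 and 6, kinesins higher 3 and adaptors higher 6. Without the filter on dim probes 0 dyneins and dynactin were higher. With spike-in scaling over the means of 10 spike-in probes, 772 entries, 2 members, 1 kinesin, 1 dynein or dynactin gene and 1 adaptor were lower, and 0 dyneins and dynactin higher. The spike-in mean was also taken over unflagged spots and over all spots, alternatives recorded after seeing the data, with 691 and 770 entries lower and the same 2, 1, 1, 1 and 0 for the other counts; members higher were 8 and 7. The 75th percentile over spots, also recorded after seeing the data, gave 8 members higher and 19 lower and 5088 entries higher and 5967 lower. Signs turned for uncalled members with spike-in scaling (Kif26b 0.23, Dync1li2 0.61, Dync2li1 0.051, Dynlrb2 0.44, Dynlt1c 0.21, Dynll2 0.20, Klc3 0.37, Kif3a 0.28, Kif3c 0.27, Kif14 0.53, Kif1b 0.21, Kif21a 0.14, Kif20b 0.52, Kif20a 0.15) and for Kif3b, which had been called (0.083). They turned with median scaling (Dync1li2 0.24, Dynlrb2 0.073, Klc3 0.0051, Kif14 0.17, Kif20b 0.16), cyclic loess (Dctn4 −0.017, Kif14 0.095, Kif20b 0.24), quantile scaling (Dctn4 −0.050, Kif14 0.13, Kif20b 0.22), no scaling (Kif27 −0.016), the mean of a gene's probes (Kif2a −0.42, Kif17 −0.85, Kif1b 0.20) and the probe nearest the 3′ end (Klc1 0.15, Kif2a −0.11, Capza1 0.15, Hook1 1.03). Klc1 and the adaptor Hook1 had been called lower, and Capza1 is an uncalled gene of the adaptor list. With an array left out, signs also turned for Dync1li2 (range −0.21 to 0.12), Dynlrb2 (−0.60 to 0.17), Kif24 (−0.069 to 0.30), Kif27 (−0.26 to 0.30), Kif20b (−0.27 to 0.0008), Capza1 (−1.93 to 0.34) and Kifc1 (−0.11 to 0.29). The causes were not tested. Replicate numbers were not stated to pair the samples, and the deviations of same-numbered arrays correlated at 0.39; with the replicate number as a block, 10 members were higher and 18 lower, with Kif26a (adjusted p = 0.0338) and Kif2a (0.0255) gained as higher and Dync1h1 (0.0426) as lower.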
